A study of Mus musculus with 12 samples.

Results

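The adult Lgr5 stem cells of the mouse small intestine, labelled ISC, were compared with the embryonic small-intestinal epithelium titled E14.5 for its embryonic day, across all genes. The 6 libraries of the comparison, 3 per group, were chosen by their sample titles from the 12 RNA-seq libraries of the series. Each library holds read counts for 23366 gene symbols. The other 6 libraries, embryonic epithelium titled E12.5 and adult villus epithelium (AE), entered the fit, and their levels are quoted only beside genes described here. The comparison addresses what distinguishes adult intestinal stem cells from the embryonic epithelium that comes before them.

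Both groups came from mice of a mixed C57BL/6 CD1 strain. E14.5 cells were sorted from dissected embryonic gut, after collagenase digestion, as live cells carrying the epithelial surface protein EpCAM and lacking CD31 and CD45, the markers of endothelium and white blood cells. ISC were sorted by high Lgr5-EGFP fluorescence from crypts of Lgr5EGFP-Cre-ERT males at postnatal day 60, 1 gut per replicate. The crypts had been freed with EDTA and digested with collagenase and DNase. The sources used here do not give the number or sex of the embryos behind each E14.5 library. The sort gate took cells that transcribe from the Lgr5 locus, so higher Lgr5 in ISC follows at least in part from the gate. Age, sex, dissociation, gate and read listing all differ between the groups, and their parts cannot be told apart. In bulk samples, fewer cells of a type and less RNA per cell cannot be told apart either.

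In all 6 embryonic libraries the age label names the other embryonic stage than the title, and titles were followed here. Where the call or direction of a named gene, or the balance of higher and lower members of a list, turned with that choice, this is given beside it. The E14.5 libraries held 19595603 to 45190749 gene reads and the ISC libraries 15104540 to 22496396. Reads without a unique alignment made up 5.05% to 5.96% of the reads listed for ISC libraries and were listed at 0 in every E14.5 library. That difference in listing and the group cannot be told apart. Replicates were not copies of one library: the chi-square of their counts, divided by its degrees of freedom, was 3.48 to 10.2 between E14.5 libraries and 20.9 to 52.6 between ISC libraries.

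The adult small-intestinal epithelium is renewed from crypts. Lgr5-positive stem cells at the crypt base divide under Wnt and Notch signals, between Paneth cells that supply both signals together with antimicrobial peptides. Their daughters move up to become absorptive enterocytes or goblet, enteroendocrine, tuft and Paneth cells. The embryonic gut tube has no crypts. Its dividing epithelium signals to the mesenchyme through Hedgehog ligands and starts to form villi around the stage compared here, before Paneth cells appear and before microbes and milk arrive.

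Most genes differed. Of 15342 genes tested, 9319 passed an adjusted p of 0.05 (60.7%), 4627 of them higher in ISC (30.2%) and 4692 lower (30.6%). These percentages are the background for every gene group below. The first principal component of the 6 libraries held 92.4% of their variance and separated the groups. The 3 libraries of one group all lay above the 3 of the other for 11045 genes (72.0%). The median log2 difference over all tested genes was -0.00. The scaling between libraries places typical differences near 0, so this median and the near-equal shares follow in part from it. With another scaling (relative log), 4291 genes were called higher and 5054 lower. At a fitted change of at least 2-fold, 5091 genes were called (33.2%), 2418 of them higher in ISC (15.8%) and 2673 lower (17.4%). At 8-fold or more, 690 were higher (4.50%) and 1306 lower (8.51%). Levels below are normalised counts per 1000000 reads (CPM), as mean ± SD of 3 libraries unless single libraries are listed, and log2 differences are ISC minus E14.5 from the same fit, with a standard error (SE).

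**Figure D1:**
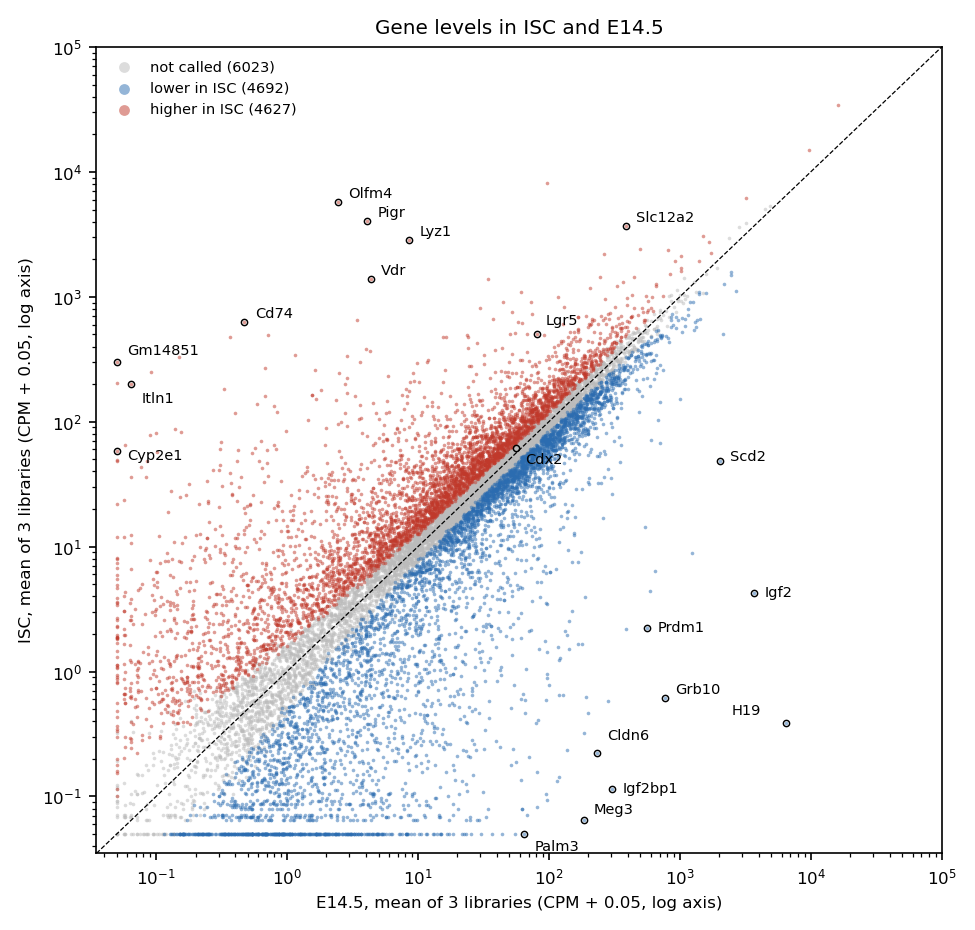
Mean level in the 3 ISC libraries (vertical) against the mean in the 3 E14.5 libraries (horizontal) for all 15342 tested genes, both on log axes in CPM with 0.05 CPM added so that zeros can be drawn. Red points are the 4627 genes called higher in ISC, blue points the 4692 called lower and grey points the rest, and the labelled genes near the left and lower edges are those almost restricted to one group.

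The largest rises in ISC were of genes with almost no reads in the embryo. Most of the 12 largest belong to the Paneth cell repertoire or its alpha-defensin family, among them Gm14851, Gm15284, Defa20, Defa21, Defa22 and AY761184, whose symbols name alpha-defensin loci, and Itln1, a sugar-binding lectin. Mptx2, a pentraxin gene, Olfm4, the crypt-base marker, Cyp2e1, an oxidizing cytochrome P450, and Slc14a1, a urea transporter, were also among them. Itln1 stood at 245, 251 and 103 CPM in ISC replicates 1, 2 and 3, against 1 read in all 3 E14.5 libraries together. Cyp2e1 stood at 63.0, 49.0 and 62.1 CPM, and it had 0 reads in E14.5, so that it was at least 2209-fold higher in ISC when 3 counts over the 3 libraries are taken as the floor. Slc14a1 stood at 255, 216 and 285 CPM against 0.0407 ± 0.0391. The adult villus epithelium carried Itln1 at 270.3 ± 107 CPM but Cyp2e1 at 4.20 ± 1.00 and Slc14a1 at 22.5 ± 4.16 CPM, below ISC with adjusted p = 4.39e-08 and 1.16e-08 in the same fit, which called 67.8% of all tested genes between ISC and AE.

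Upstream sequences of genes at the 2 extremes are shown to place the loci, taken from RefSeq on build GRCm38.p6 as the 250 bases before the annotated start, read 5′ to 3′ on the gene's strand. Capitals mark CpG dinucleotides, the sites of DNA methylation. The table gave a single window for the genes shown, and Slc14a1, H19 and Slitrk4 had no entry. The first 4 genes were higher in ISC: Itln1 (chr1:171535295-171535544, minus strand), Cyp2e1 (chr7:140763569-140763818, plus strand), Olfm4 (chr14:80000052-80000301, plus strand) and Defa21 (chr8:21025295-21025544, plus strand).
Itln1: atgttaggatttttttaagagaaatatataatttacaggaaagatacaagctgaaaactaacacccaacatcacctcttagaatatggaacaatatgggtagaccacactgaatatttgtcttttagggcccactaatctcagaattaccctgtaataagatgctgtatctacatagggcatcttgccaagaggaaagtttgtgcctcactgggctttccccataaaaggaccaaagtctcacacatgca
Cyp2e1: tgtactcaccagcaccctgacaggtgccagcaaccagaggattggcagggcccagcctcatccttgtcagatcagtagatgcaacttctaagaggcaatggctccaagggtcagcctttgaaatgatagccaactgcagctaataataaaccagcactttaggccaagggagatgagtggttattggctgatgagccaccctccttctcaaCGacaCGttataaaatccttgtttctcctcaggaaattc
Olfm4: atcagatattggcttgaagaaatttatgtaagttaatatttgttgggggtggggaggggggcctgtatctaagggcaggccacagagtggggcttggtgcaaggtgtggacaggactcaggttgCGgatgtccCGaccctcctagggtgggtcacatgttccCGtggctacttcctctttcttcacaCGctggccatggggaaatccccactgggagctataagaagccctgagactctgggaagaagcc
Defa21: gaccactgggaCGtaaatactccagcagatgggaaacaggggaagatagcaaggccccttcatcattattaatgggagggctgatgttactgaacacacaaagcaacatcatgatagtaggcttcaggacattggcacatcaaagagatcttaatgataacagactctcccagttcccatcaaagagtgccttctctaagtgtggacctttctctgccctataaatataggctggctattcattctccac
The other 2 were lower in ISC: Palm3 (chr8:84021224-84021473, plus strand) and Gli3 (chr13:15463473-15463722, plus strand).
Palm3: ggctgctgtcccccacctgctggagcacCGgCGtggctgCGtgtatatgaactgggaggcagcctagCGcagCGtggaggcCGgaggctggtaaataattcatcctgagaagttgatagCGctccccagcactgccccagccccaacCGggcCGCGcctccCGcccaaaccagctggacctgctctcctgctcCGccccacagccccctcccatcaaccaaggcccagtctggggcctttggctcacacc
Gli3: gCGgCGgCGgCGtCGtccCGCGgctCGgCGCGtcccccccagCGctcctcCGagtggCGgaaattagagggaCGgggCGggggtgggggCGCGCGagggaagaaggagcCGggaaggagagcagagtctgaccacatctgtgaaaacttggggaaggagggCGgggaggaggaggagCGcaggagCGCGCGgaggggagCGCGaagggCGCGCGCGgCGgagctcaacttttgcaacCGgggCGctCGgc
The stretch before Itln1 holds 0 CpG, that before Cyp2e1 2, Olfm4 4, Defa21 1, Palm3 12 and Gli3 34. Upk3b, also lower in ISC and not shown, has 2. The letters TATAAA, searched on both strands, occur in the windows of Cyp2e1 and Defa21 and not in those of the other 4, and in 13.6% of all 32851 windows of the table, each 300 bases long. The 250 bases before Defa21 and Defa22 are identical, and those before Defa20 match them at 245 of 250 positions. The transcripts of these genes also share sequence with those of other genes. Of their 50-base stretches, 72.9% for Defa21, 74.9% for Defa22 and 100% for Defa20 occur in transcripts of any other gene. Values of single alpha-defensin genes are therefore uncertain. Windows were on hand for 77.3% of the genes higher by 8-fold or more and 73.8% of those lower, under the 80% set for a comparison of promoter content between groups, so that comparison is void and none is given.

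The largest falls were of embryonic genes with no or almost no reads in ISC. H19 led them, with Palm3, which encodes a paralemmin-family membrane protein, Cbln2, a synapse-organising secreted protein, Prrg3, a membrane protein with a Gla domain, and the non-coding imprinted RNA Meg3. Robo2 and Slitrk4 encode receptors of axon guidance and synapse formation, Gli3 a transcription factor of the Hedgehog pathway, Gjc1 a gap junction protein, Upk3b a uroplakin of mesothelium and urothelium, and Igf2bp1 a fetal messenger-RNA binding protein. In the E14.5 libraries Palm3 stood at 65.5, 62.2 and 65.9 CPM, and at 0 reads in ISC, at least 1229-fold lower. Prrg3 stood at 45.5, 46.7 and 38.3 CPM and Gli3 at 24.4, 26.1 and 25.4, both with 0 reads in ISC, at least 829-fold and 482-fold lower. Cbln2 stood at 56.5, 55.3 and 53.9 CPM in E14.5 and had 0 reads in all 6 adult libraries. Igf2bp1 fell from 299.9, 306 and 311 CPM to 0.0646 ± 0.0652.

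**Figure D2:**
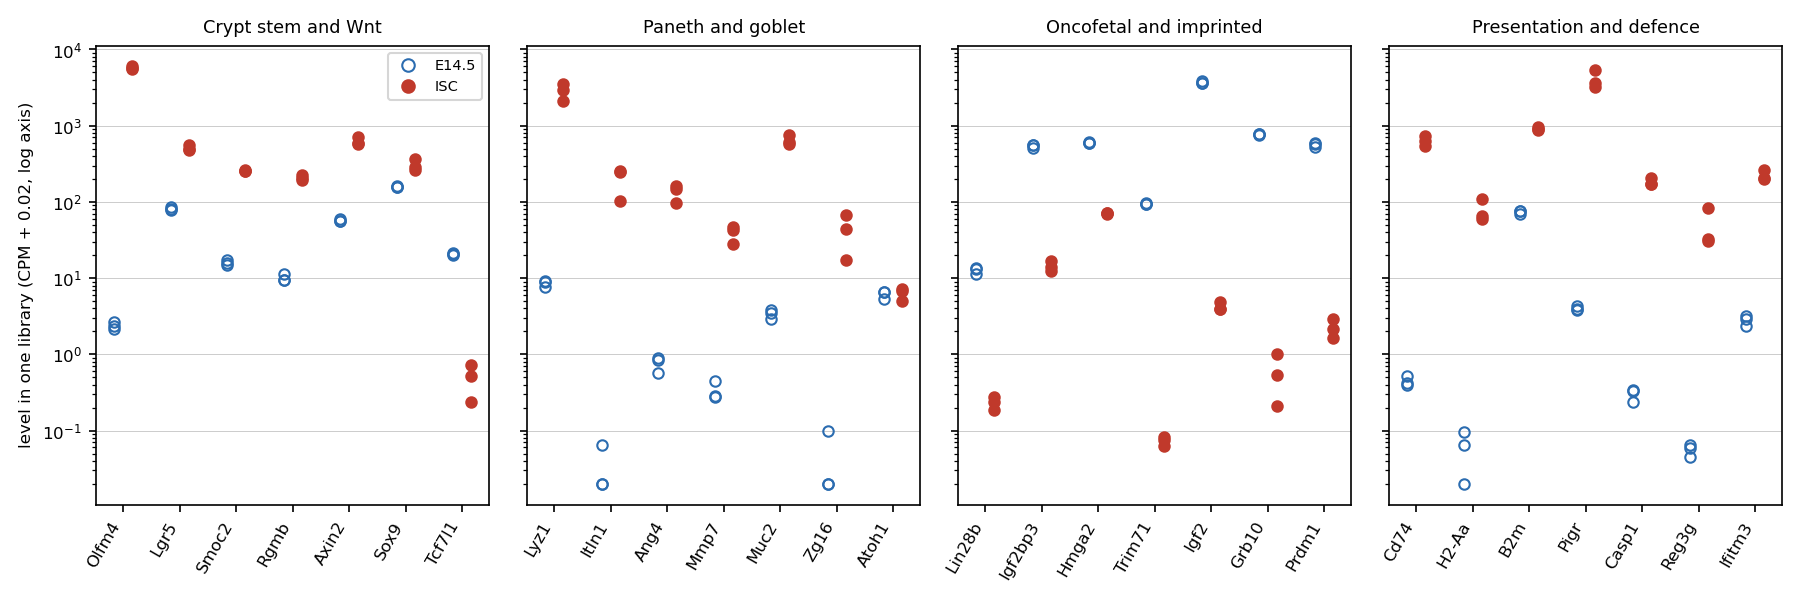
Level of 28 genes in each library on a log axis in CPM, with 0.02 CPM added so that zeros can be drawn. Open circles are the 3 E14.5 libraries and filled circles the 3 ISC libraries, in 4 panels of 7 genes: crypt stem and Wnt genes, Paneth and goblet genes, oncofetal and imprinted genes, and antigen presentation and defence genes. The genes drawn were chosen with earlier results of these data known. In 27 of the 28 genes the 2 groups do not overlap, Atoh1 being the exception, against 72.0% of all tested genes without overlap.

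In absolute terms a few genes carried much of the difference. The 6 genes with the largest gain in CPM were the ribosomal RNA precursor Rn45s, Olfm4, the chloride channel regulator Clca4, the nuclear RNA Malat1, the immunoglobulin receptor Pigr and the chloride importer Slc12a2. The 6 with the largest loss were H19, Igf2, the fatty acid desaturase Scd2, the lactate dehydrogenase Ldha, the ubiquitin ligase Nedd4 and Xist. Clca4 rose from 89.4, 95.8 and 106 CPM to 7553, 7390 and 9732 and stood at 1422 ± 295 in AE. Rn45s, at 49540, 26580 and 26340 CPM in ISC and 15450, 13130 and 20320 in E14.5, is a gene with many copies in the genome, and the part of the read listing in its levels was not tested. Its call was lost without E14.5 replicate 1 (adjusted p = 0.0584), without E14.5 replicate 2 (0.0756) or without ISC replicate 1 (0.112).

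The stem cell signature was higher in ISC nearly throughout. Of 36 genes tested, 30 were higher and 2 lower, with a median log2 difference of 2.27, and their summed level was 25074 to 29211 CPM in ISC against 2566 to 2670 in E14.5. Smoc2, a secreted matrix protein, stood at 256, 256 and 264 CPM against 15.6, 17.1 and 15.1. Rgmb, a BMP co-receptor, stood at 208, 224 and 197 against 9.52, 11.3 and 9.40 CPM, a 20.7-fold difference (log2 4.37, SE 0.14, adjusted p = 9.73e-12). The groups do not overlap for either gene. Not every stem-cell gene was low in the embryo. Sox9, a transcription factor of crypt progenitors, stood at 158 ± 1.18 CPM in E14.5 and 305 ± 52.7 in ISC, and Tnfrsf19, a Wnt-target receptor also called Troy, at 18.1 ± 2.11 and 67.6 ± 9.88. The 2 lower genes, named after their values were seen, were Mex3a, an RNA-binding protein gene of slowly cycling crypt cells, at 88.0, 87.3 and 94.6 in E14.5 and 31.2 ± 5.56 CPM in ISC, and Bmi1, a Polycomb gene, at 55.5 ± 2.90 and 41.0 ± 3.44. The list was assembled with earlier results of these data known, and the gate shares in its direction.

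Wnt pathway genes divided in part by role. Of the secreted ligands and their helpers, 3 of 13 tested were higher in ISC and 8 lower. Wnt3, the ligand that Paneth cells supply, stood at 3.99, 5.12 and 4.39 CPM against 0.573, 0.410 and 0.659. Of 36 targets and receptors, 21 were higher and 13 lower. Most feedback targets tested were on the higher side, though not all. Notum, another target on the list, did not pass the filter, with 30 reads in E14.5 and 2 in ISC. Axin2, a scaffold that limits the signal, rose 10.9-fold from 57.7 ± 1.86 to 627 ± 77.2 CPM, Rnf43 and Znrf3, ubiquitin ligases that remove Wnt receptors, rose 3.50-fold and 1.99-fold, and Cd44, a hyaluronan receptor of crypt cells, rose 30.4-fold. The lower genes were mostly receptors and inhibitors. They included 7 Frizzled receptor genes, Fzd10 among them at 5.61 ± 0.192 CPM with 3 reads in ISC, and the secreted inhibitors Sfrp1, 110.2-fold lower, and Dkk3, 59.4-fold lower. Another Frizzled gene was higher. Among the nuclear factors, Tcf7l1, which represses Wnt targets, fell from 20.6, 21.6 and 19.9 CPM to 0.507, 0.218 and 0.696, whereas Tcf7 and Lef1 rose 3.35-fold and 4.25-fold. The call of Lef1 was lost by the age label (adjusted p = 0.0972).

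Signals that pass between epithelium and mesenchyme were mostly lower. Of 37 Hedgehog and BMP genes, 20 were lower in ISC and 10 higher. The ligand Shh stood at 193, 202 and 182 CPM in E14.5 and 0.570, 0.381 and 0.783 in ISC, and the ligand Ihh fell 5.36-fold, from 29.9 ± 0.568 to 5.60 ± 1.05 CPM. Shh shares 23.6% of its sequence with other transcripts. Ptch1, the Hedgehog receptor, was slightly higher (111 ± 6.68 against 83.4 ± 2.94 CPM), and lower by the age label (log2 -0.46). The BMP ligands Bmp2 and Bmp4 fell 9.41-fold and 25.8-fold, and the receptor gene Bmpr1b, at 8.74 ± 1.07 CPM in E14.5, had 0 reads in ISC. The BMP targets Id1 and Id3 rose 5.20-fold and 4.74-fold, while Id2 fell 5.54-fold, and Bmp3, an antagonistic family member, rose 28.5-fold to 106 ± 17.0 CPM. Mesenchymal genes read in E14.5, described below, moved with these losses, and their part was not tested.

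Notch genes went both ways, 10 of 23 higher and 8 lower. The receptor Notch1 rose from 122, 124 and 114 to 247, 252 and 281 CPM and the target Hes1 from 25.9 ± 0.690 to 50.6 ± 5.43, whereas the receptor Notch3 fell from 35.7, 33.5 and 30.5 to 1.39, 2.83 and 2.83. Of the ligands, Jag1 rose 3.00-fold and Dll1 1.76-fold, and Jag2 fell 3.01-fold. The growth-factor list was also divided, 12 higher (35.3%) and 13 lower (38.2%) of 34, against 30.2% and 30.6% of all tested genes. Within it, Egfr, the EGF receptor, rose 1.85-fold, while Fgfr1, an FGF receptor, and Fgf9, an epithelial FGF that acts on mesenchyme, fell 9.87-fold and 8.91-fold. Igfbp5, which binds insulin-like growth factors, stood at 124, 126 and 107 CPM in E14.5 and 0.0936 ± 0.112 in ISC. Of the Hippo and YAP genes, 7 of 27 tested were higher in ISC and 11 lower. The effector Yap1 was lower (119 ± 17.9 against 159.8 ± 7.75 CPM), the receptor kinase Axl, a YAP target, fell 271-fold, and Cyr61, a YAP target and also an immediate-early gene, rose 9.64-fold to 958, 683 and 526 CPM. Of the Eph receptors and ephrins, 9 of 17 tested were higher in ISC and 6 lower. Ephb2 and Ephb3, receptors that position cells along the crypt, rose 2.48-fold and 7.09-fold, while the receptor Epha7 fell 16.3-fold and the ligand Efna5, at 28.1 ± 0.795 CPM in E14.5, kept 1 read in ISC.

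The oncofetal programme was almost wholly on the embryonic side. Of 29 genes tested, 23 were lower in ISC, 17 of them by 8-fold or more, and 2 were higher, with a median of -4.61. Several encode RNA-binding proteins of embryonic cells. Lin28b, which blocks maturation of let-7 microRNAs, stood at 13.2, 13.5 and 11.2 CPM in E14.5 and 0.254, 0.163 and 0.217 in ISC. Igf2bp3 fell from 554, 559.6 and 516 to 12.3, 13.8 and 16.7 CPM, and Trim71, itself a let-7 target, from 95.5, 94.5 and 92.6 CPM to 3 reads in the 3 ISC libraries. Transcription and chromatin factors followed them. Sox11 fell 658-fold, Mycn 21.9-fold and the chromatin protein gene Hmga2 8.46-fold, and Sall4 went from 12.4 ± 1.51 CPM to 2 reads. Hmga2 kept 71.1, 70.0 and 71.9 CPM in ISC and was lower again in AE, at 8.02 ± 3.30 CPM (adjusted p = 2.79e-08). The surface proteins Gpc3, a glypican, and Dlk1, a Notch-like protein, stood at 137 ± 3.53 and 17.1 ± 1.32 CPM in E14.5, against 0.186 ± 0.0877 CPM and 0 reads in ISC. The 2 higher genes, named after their values were seen, were Il1rn, an interleukin-1 antagonist, at 0.850 ± 0.332 against 0.122 ± 0.0674 CPM, and Nr6a1, an orphan nuclear receptor, at 54.3 ± 2.99 against 31.1, 30.3 and 28.2. By the age label Nr6a1 was not called and turned in direction (log2 -0.12).

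Imprinted genes are read from 1 parental copy, some of them only in certain tissues, and many set fetal growth. Those on the list were lower in 29 of 37 cases and higher in 5, with a median of -3.88. Which parental copy was read in these samples was not tested. The growth promoter Igf2 fell from 3624, 3646 and 3851 to 3.93, 4.79 and 3.87 CPM, with 62.1% of its sequence shared with other transcripts. The growth restrictors fell as well: Grb10, an inhibitor of insulin and IGF receptors, from 788, 771 and 746 to 0.190, 0.981 and 0.522 CPM, and Cdkn1c, a cell-cycle inhibitor, 71.9-fold. In the Dlk1 to Meg3 cluster both parental classes were lower. Paternally read Dlk1 and Rtl1 had 0 reads in ISC, and maternally read Meg3 and Rian, at 184 ± 5.04 and 199.6 ± 2.86 CPM in E14.5, stood at 0.0145 ± 0.0251 and 0.412 ± 0.248. Plagl1, a zinc-finger regulator within the group, fell 224-fold. The 5 exceptions, all named after their values were seen except Cobl and Ascl2, were the actin nucleator Cobl, Ascl2, the non-coding Kcnq1ot1 and Airn, and Ppp1r9a. Cobl rose 25.3-fold to 148 ± 28.4 CPM, Kcnq1ot1 3.60-fold and Airn 1.77-fold, the last being lower by the age label (log2 -2.15), under which Kcnq1ot1 and Ppp1r9a were not called (adjusted p = 0.587 and 0.304). Zfp57, a factor that keeps imprints methylated, fell 117-fold to 0.190, 0.0545 and 0.304 CPM.

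Several core regulators of intestinal identity did not pass the test. Cdx2, the homeobox master gene of the intestine, stood at 58.9, 54.9 and 55.6 CPM in E14.5 and 60.1, 50.4 and 75.1 in ISC and was not called (log2 0.13, SE 0.14, adjusted p = 0.443). Gata4 and Gata6, zinc-finger factors of the small intestine, were not called either (log2 0.16, SE 0.14, and -0.12, SE 0.12). By the age label in place of the title they were called in opposite directions (log2 -0.85 and 0.35), and in the 6 libraries alone Gata6 was called lower (adjusted p = 0.049). Cdx1, a paralogue of Cdx2, rose 4.53-fold to 105 ± 3.09 CPM, and Hnf4a 1.65-fold to 1689 ± 172. Of 49 transcription factors on the list, 26 were higher and 10 lower. Nfia, a nuclear factor I gene, rose from 30.8, 28.3 and 25.4 to 394, 411 and 469 CPM. Prdm1 and Meis1 were among the largest falls. Prdm1, the repressor Blimp1 that governs the change from fetal to adult intestine after birth, fell from 567, 594 and 524 to 2.85, 2.12 and 1.61 CPM. Meis1, a partner of Hox proteins, stood at 29.2 ± 1.24 CPM in E14.5 with 1 read in ISC. Hox genes themselves were low in both groups, with 39 entries of which 17 passed the filter. Of these, 3 were higher and 9 lower, and Hoxb9 rose from 0.278 ± 0.164 to 7.36 ± 1.34 CPM.

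Paneth cell genes were on in the Lgr5-EGFP-high sort. Of 19 tested, 17 were higher than in E14.5 and 1 lower, with a median of 7.50. Lyz1, the Paneth lysozyme, stood at 2902, 3553 and 2088 CPM in ISC against 9.02, 8.88 and 7.65. Ang4, an antimicrobial ribonuclease, stood at 148, 159.9 and 95.3 against 0.548, 0.820 and 0.879 CPM, and Mmp7, the protease that activates defensins, at 46.3, 43.2 and 27.9 against 0.424, 0.254 and 0.264. ISC replicate 3 was the lowest of the 3 for Lyz1, Itln1 and the leading defensins, and Gm15284 spanned 250.4, 305 and 59.6 CPM. The levels in ISC did not pass the threshold against adult villus epithelium for Lyz1 (3772 ± 2142 CPM in AE, adjusted p = 0.317), Ang4 (161 ± 66.4, 0.404) or Mmp7 (29.1 ± 12.7, 0.203), which does not show that they are alike. Paneth cells lie beside stem cells in the crypt, and their part in these libraries was not tested.

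Genes of the other secretory cells were also readable in ISC at moderate levels. Of 21 goblet genes, 17 were higher and 0 lower. Muc2, the gel-forming mucin, stood at 603, 764 and 580.4 CPM against 2.89, 3.83 and 3.43, and the lectin Zg16 at 44.7, 67.2 and 17.2 against 0.0260 ± 0.0451. Both were lower than in AE, at 7967 ± 1579 and 3319 ± 1573 CPM. The factors that specify these cells were not called. Atoh1, which commits cells to secretory fates, stood at 6.28 ± 1.11 against 6.12 ± 0.770 CPM (log2 0.05, SE 0.25, adjusted p = 0.881), and Spdef, which matures goblet and Paneth cells, at 4.99 ± 2.37 against 6.13 ± 0.227 (log2 -0.31, SE 0.29). Of 32 enteroendocrine genes, 14 were lower, among them the specifying factors Neurog3 and Neurod1, 2.83-fold and 2.10-fold, and the hormone Sct, 21.4-fold. The 9 higher included the serotonin-synthesis enzyme Tph1, 13.7-fold, and Gcg, the proglucagon gene, 7.09-fold. By the age label the enteroendocrine list turned to 16 higher and 7 lower, Neurog3 and Neurod1 were higher (log2 1.49 and 0.84), Sct and Gcg were not called (adjusted p = 0.245 and 0.484), and Atoh1 and Spdef were called higher (log2 6.86 and 1.08). Spdef was called lower without ISC replicate 2 (adjusted p = 0.0418). Tuft cell genes were higher in 11 of 17 and lower in 1. Dclk1 stood at 7.78 ± 1.55 against 0.912 ± 0.219 CPM and the taste-pathway channel Trpm5 at 10.3 ± 3.82 against 1.18 ± 0.279. The specifying factor of tuft cells, Pou2f3, was not called (8.51 ± 1.46 and 6.47 ± 0.192 CPM) except by the age label (log2 1.30).

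**Figure D3:**
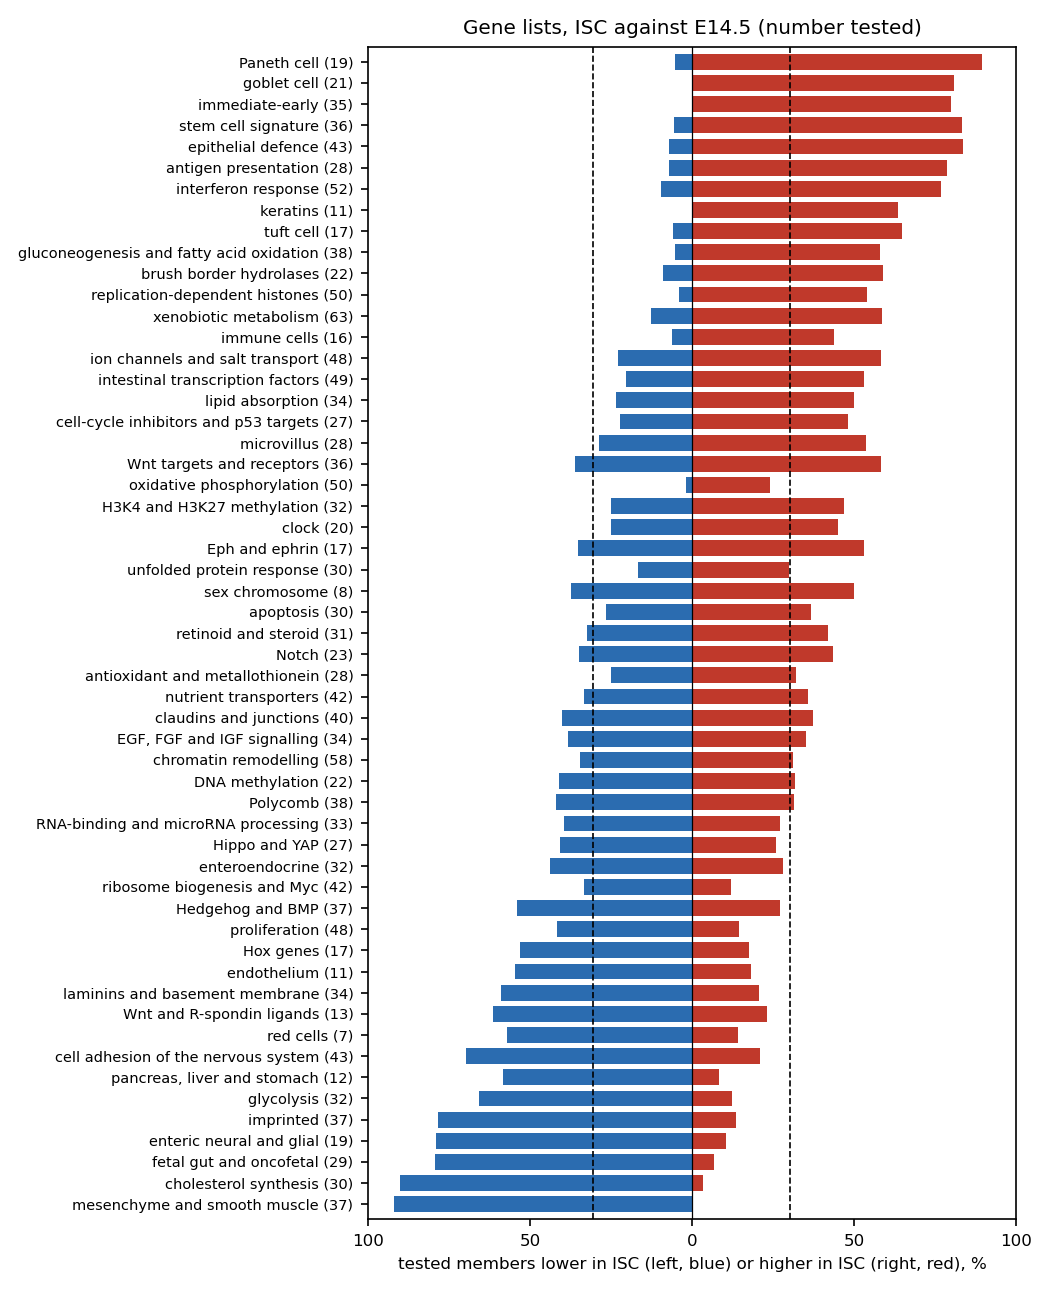
Share of tested members called higher (red, to the right) and lower (blue, to the left) in ISC, in percent, for all 55 gene lists drawn up, with the number tested beside each name. Dashed lines mark the background over all 15342 tested genes, 30.2% higher and 30.6% lower. Mesenchyme, cholesterol synthesis, fetal and imprinted genes reach far to the left, and Paneth, stem-cell, defence and immediate-early genes far to the right.

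Several enterocyte genes were not called and others rose. Alpi, the intestinal alkaline phosphatase, stood at 21.6, 21.6 and 20.6 CPM in E14.5 and 30.7, 42.3 and 10.5 in ISC, Anpep, an aminopeptidase, at 656, 683 and 661 and 453, 668 and 400.3, and the chylomicron protein Apob at 1161, 1230 and 1015 and 896, 1117 and 1022. The groups overlap for all 3, none was called, and the SE of each log2 difference was 0.40, 0.24 and 0.31. By the age label Alpi was called higher and Apob lower (log2 3.97 and -0.97), and Anpep was called lower without ISC replicate 2 (adjusted p = 0.0472) and with only these 6 libraries fitted (0.0438). Fabp1, a fatty acid carrier, and the keratin Krt20 were not called either (log2 -0.60, SE 0.39, and -0.03, SE 0.34), and by the age label Fabp1 was called higher and Krt20 lower (log2 2.23 and -1.10). Without ISC replicate 2 Fabp1 was called lower (adjusted p = 0.0228). In contrast, Sis, the sucrase-isomaltase that digests table sugar, rose from 0.748, 0.527 and 0.615 to 253, 401 and 151 CPM and Mme, the protease neprilysin, 109-fold. In all, 13 of 22 hydrolases were higher and 2 lower. ISC stood far below the villus for these genes, where AE had Sis at 14540 ± 3081 and Alpi at 2824 ± 894 CPM.

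Of 42 nutrient transporters, 15 were higher in ISC (35.7%) and 14 lower (33.3%), against 30.2% and 30.6% of all tested genes. The basal glucose carriers of growing tissue fell: Slc2a1 (GLUT1) from 259.9, 266 and 231 to 44.0, 26.5 and 25.6 CPM, and Slc2a3 (GLUT3) from 16.1, 15.2 and 12.3 CPM to 1 read. Slc5a1 (SGLT1), the sodium-glucose importer of the brush border, rose 5.90-fold to 253 ± 43.3 CPM. The glutamate carriers Slc1a2 and Slc1a1 rose 346-fold and 171-fold, and Slc1a2, at 110.1, 82.1 and 162 CPM in ISC, stood at only 4.74 ± 1.70 in AE. The iron exporter Slc40a1 fell from 89.7, 89.2 and 72.9 to 1.90, 0.817 and 1.65 CPM and the zinc and manganese exporter Slc30a10 31.2-fold, both being high again in AE (78.4 ± 25.9 and 192 ± 61.8 CPM). Of 34 lipid absorption genes, 17 were higher and 8 lower, with the sterol exporter pair Abcg5 and Abcg8 up 94.3-fold and 220.1-fold. Microvillus genes were higher in 15 of 28 cases and lower in 8. Cobl and Baiap2l2, which build the actin core and its membrane link, rose 25.3-fold and 21.7-fold, while Ezr, the membrane linker ezrin, fell 2.21-fold.

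Salt and water transport genes were mostly higher in ISC, with 28 of 48 genes higher and 11 lower. The parts of the crypt chloride-secretion machinery rose together: Slc12a2, which loads chloride into the cell, from 384, 400.0 and 379.6 to 3549, 3504 and 4011 CPM, the apical channel Cftr from 403, 414 and 378 to 823, 784 and 963, and the basolateral potassium channels Kcnq1 and Kcnn4 301-fold and 808-fold. No ISC library overlaps an E14.5 library for these 4 genes, as for 72.0% of all tested genes. Each was higher in ISC than in AE too, with Cftr at 415 ± 54.3 and Kcnq1 at 52.4 ± 3.08 CPM in AE. The water channels Aqp1 and Aqp4 rose 102-fold and 84.7-fold. Xenobiotic metabolism was higher in 37 of 63 genes and lower in 8. The higher ones included the transporter Abcc3, 109.5-fold, and the epoxide hydrolase Ephx1, 79.3-fold. Of the retinoid and steroid genes, 13 of 31 tested were higher in ISC and 10 lower, which turned to 9 and 10 without E14.5 replicate 2. The enzyme Aldh1a2 that makes retinoic acid fell from 6.56 ± 0.588 to 0.141 ± 0.208 CPM and the carrier Rbp4 fell 64.0-fold, while the retinol dehydrogenase Rdh16 rose 162-fold.

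Mucosal defence genes were mostly higher in ISC. Of 43 defence genes, 36 were higher in ISC and 3 lower. Pigr, which carries IgA across the epithelium, stood at 3.81, 4.33 and 3.91 CPM in E14.5 and 3202, 3631 and 5354 in ISC. Casp1, the inflammasome protease, stood at 0.324, 0.215 and 0.308 and 173, 173 and 204 CPM, and Reg3g, a bactericidal lectin, at 0.0249, 0.0390 and 0.0440 and 82.6, 31.1 and 32.3. Ccl25, a chemokine that draws lymphocytes to the gut, rose 26.0-fold. The groups are apart for all of these, with Reg3g uneven among the ISC libraries. Antigen presentation was higher in 22 of 28 genes and lower in 2, with a median of 3.26. The class II chain H2-Aa stood at 0.0748, 0 and 0.0440 CPM in E14.5 and 110.0, 65.9 and 59.8 in ISC, and its chaperone Cd74 at 0.498, 0.371 and 0.396 and 727, 535 and 630.3. The class I light chain B2m rose 12.3-fold from 73.5 ± 3.26 to 908 ± 39.0 CPM, the heavy chain H2-K1 2.23-fold, and the immunoproteasome subunit Psmb8 25.8-fold.

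Interferon response genes followed them, with 40 of 52 higher and 5 lower. Ifitm3, a membrane protein that restricts viruses, stood at 259, 200.3 and 206 CPM in ISC against 2.80 ± 0.459 and was higher than in AE (47.1 ± 2.76 CPM, adjusted p = 6.77e-08). The GTPase Igtp rose 20.0-fold. White blood cells also transcribe class II genes. Their defining gene Ptprc, which encodes CD45, stood at 0.127, 0.490 and 0.391 CPM in ISC and 0.149, 0.293 and 0.0879 in E14.5, without a call. By the age label Ptprc was called higher in ISC (log2 3.57). The list of immune-cell genes summed to 103 to 126 CPM in ISC against 78.9 to 80.8 in E14.5. Of its 16 tested members, 7 were higher (43.8%) and 1 lower (6.25%), so Ptprc does not stand for the list. The part of white blood cells in the class II levels was not tested.

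Glycolytic genes were mostly lower in ISC. Of 32 genes, 21 were lower and 4 higher, with a median of -1.36. Pfkl, a phosphofructokinase of the committing step, fell from 308, 313 and 289.8 to 25.7, 25.6 and 27.5 CPM, Aldoa, the muscle-type aldolase, from 679, 698 and 661 to 116, 99.8 and 95.4, and Ldha, which makes lactate, from 2189, 2264 and 1973 to 520.1, 468 and 521. The lactate exporter Slc16a3 fell 31.9-fold. The groups are apart at each of these steps. Among the exceptions, Pdk4, the kinase that keeps pyruvate out of the mitochondrion, rose 119.5-fold. Hk2 was not called (log2 -0.33, SE 0.17), but was called lower by the age label (log2 -1.24) and in the 6 libraries alone (adjusted p = 0.023). The adult villus was not low in glycolytic genes, with Ldha at 2928 ± 234 CPM.

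Most genes of cholesterol and fatty acid synthesis fell: 27 of 30 genes were lower, 1 was higher, and the list summed to 5768 to 5951 CPM in E14.5 and 1217 to 1419 in ISC. Sqle, the squalene epoxidase, stood at 198, 203 and 208 CPM in E14.5 and 41.4, 32.3 and 32.6 in ISC. Scd2 and Scd1, which desaturate fatty acids, fell 42.1-fold and 16.7-fold. The exception, named after its value was seen, was Scap, the escort of the sterol-sensing factors, at 72.5 ± 3.71 against 54.1 ± 1.73 CPM. The call of Scap was lost by the age label (adjusted p = 0.719). In the other direction, 22 of 38 genes of gluconeogenesis and fatty acid oxidation were higher and 2 lower. Cpt1a, the gate of mitochondrial fatty acid import, rose from 89.9, 98.5 and 94.4 to 265, 301 and 374 CPM and the coactivator Ppargc1a 6.80-fold. Subunits of oxidative phosphorylation mostly did not pass the test: 12 of 50 were higher, 1 lower and 37 not called.

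**Figure D4:**
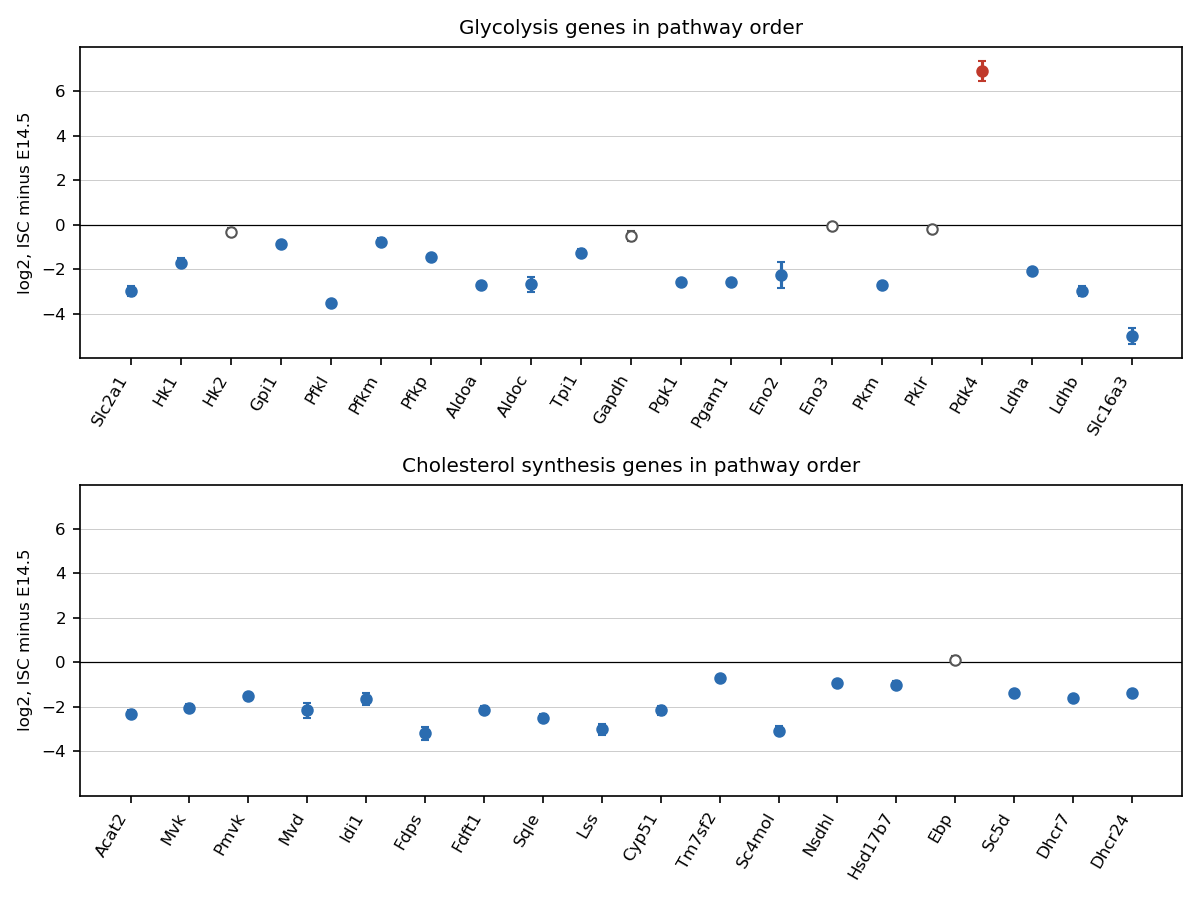
Log2 difference between ISC and E14.5 for selected glycolytic genes (top) and cholesterol synthesis genes (bottom) in the order of the pathway, with bars of 1 standard error. Filled points passed the adjusted p of 0.05 and open points did not. Most points lie below 0, Pdk4 being the only gene drawn that was called higher. Hk2, Gapdh, Eno3, Pklr and Ebp were not called. By the age label Hk2 and Gapdh were called lower and Pklr and Ebp higher (log2 -1.24, -0.82, 1.31 and 0.61). In the 6 libraries alone Hk2, Gapdh and Pklr were called lower (adjusted p = 0.023, 0.00263 and 0.00909). Gapdh was also called lower with DESeq2 (adjusted p = 0.0304) and with relative log scaling (0.0386).

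Proliferation genes were read at similar summed levels. Of 48 proliferation genes, 21 were not called, 20 were lower in ISC and 7 higher, and the list summed to 8943 to 9202 CPM in E14.5 and 8268 to 9625 in ISC. Top2a, the topoisomerase of mitotic cells, stood at 938, 986 and 916 CPM in E14.5 and 993, 1100 and 1334 in ISC and was not called. Mki67, a mark of cycling cells, rose 2.09-fold. Cyclin and kinase genes of G1 moved in both directions, with Ccnd2 above Ccnd1 in both groups. Ccnd1 and Cdk6 rose, from 114, 115 and 116 to 282, 275 and 352 CPM and from 102, 104 and 89.3 to 308, 304 and 393, while Ccnd2 fell from 1270, 1302 and 1296 to 506, 535 and 596 and Ccnd3 and Ccne1 fell 4.65-fold and 3.58-fold. Of the cell-cycle inhibitors and p53 targets, 13 of 27 tested were higher in ISC and 6 lower. Cdkn2c, the inhibitor p18, rose from 0.290 ± 0.0367 to 10.4 ± 0.581 CPM, and Cdkn1a, the inhibitor p21, fell from 109 ± 1.06 to 37.7 ± 10.7.

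Most changes of chromatin enzymes were small. Of 38 Polycomb genes, which keep developmental genes silent, 12 were higher (31.6%), 16 lower (42.1%) and 10 not called. The shares over all tested genes were 30.2% higher and 30.6% lower. The methyltransferase Ezh2 stood at 186, 193 and 187 CPM in E14.5 and 172, 171 and 179 in ISC without a call, though it was called lower by the age label (log2 -0.69) and in the 6 libraries alone (adjusted p = 0.0457). In the same list, its less active relative Ezh1 rose 2.51-fold, and the core subunit Suz12 fell 1.47-fold, a call lost by the age label (adjusted p = 0.127). Cbx2 fell 2.24-fold and Cbx7 rose 2.33-fold, both being reader subunits of the second complex. Of the H3K4 and H3K27 methylation genes, 15 of 32 tested were higher in ISC and 8 lower, and the H3K4 methyltransferases Mll1 and Mll2 rose 2.53-fold and 2.60-fold. Of the DNA methylation genes, 7 of 22 tested were higher in ISC (31.8%) and 9 lower (40.9%). The maintenance DNA methyltransferase Dnmt1 was not called (log2 -0.17, SE 0.15) except as lower in the 6 libraries alone (adjusted p = 0.014), whereas the de novo enzyme Dnmt3a fell from 699.7, 723 and 679.5 to 141, 137 and 151 CPM and Dnmt3b and the demethylase Tet1 fell 2.25-fold and 1.75-fold. Of the chromatin remodelling genes, 18 of 58 tested were higher in ISC (31.0%) and 20 lower (34.5%), close to the shares over all tested genes. That balance turned to 15 higher and 14 lower without E14.5 replicate 2. It turned to 17 and 16 without ISC replicate 1, and to 16 and 15 without ISC replicate 2. The largest fall among them was of Satb1, a genome organiser, from 14.9, 14.7 and 14.4 CPM to 0.0634, 0.0545 and 0.0870, and Smarca2, an ATPase of the SWI/SNF complex, rose 4.84-fold to 232 ± 54.4 CPM. Histone genes of the replication clusters were higher in 27 of 50 cases and lower in 2. Single members are uncertain because family members are alike.

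Junction genes changed in both directions, 15 of 40 higher (37.5%) and 16 lower (40%), against 30.2% and 30.6% of all tested genes. The balance turned to 22 higher and 13 lower by the age label and to 16 and 14 in the 6 libraries alone. Cldn6, a claudin of embryonic epithelia, stood at 239.9, 230.0 and 231 CPM in E14.5 and 0.0634, 0.109 and 0.348 in ISC. Cldn15 and Cldn2, the pore-forming claudins of the adult small intestine and crypt, rose from 2.69, 3.32 and 3.69 to 143, 158 and 181 CPM and 5.39-fold, and Cldn18, a claudin of stomach and lung, had 0 reads in ISC. Gja1, a gap junction protein, went from 23.3 ± 2.83 CPM to 1 read, while Gjb2 rose 10.8-fold. The placental cadherin Cdh3 fell 142-fold and the epithelial cadherin Cdh1 rose 1.58-fold. Epcam, by which the embryonic cells were sorted, was not called (1043 ± 49.7 and 854 ± 20.4 CPM). It was called higher by the age label (log2 1.11) and in the 6 libraries alone (adjusted p = 0.0166). Of the keratins, 7 of 11 tested were higher in ISC and 0 lower. The pair Krt8 and Krt18 rose 3.41-fold and 3.27-fold, with 29.7% of Krt8 shared with other transcripts.

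Basement membrane genes were mostly lower in ISC. Of 34 laminin, collagen IV and integrin genes, 20 were lower in ISC and 7 higher. Lama1, the embryonic laminin alpha chain, stood at 81.0 ± 7.25 CPM with 2 reads in ISC, and Fn1, fibronectin, fell from 298, 303 and 254 to 0.190, 0.490 and 0.913 CPM. Lamb1 fell 95.1-fold and Col4a1 149-fold. Guidance and adhesion genes known from the nervous system were lower in 30 of 43 cases and higher in 9, with a median of -3.34. Robo1 fell 144-fold and Robo2, at 38.1, 40.4 and 31.4 CPM in E14.5, was at least 697-fold lower. Several of these genes are transcribed by mesenchyme or neurons as well as epithelium.

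Markers of other cell types moved with the groups. Of 37 mesenchyme and smooth muscle genes, 34 were lower in ISC and 0 higher. The 44 entries of the list summed to 477 to 583 CPM in E14.5 and 59.6 to 67.8 in ISC, where 20 had 0 reads. Col3a1, a fibroblast collagen, stood at 75.7, 72.0 and 55.1 CPM in E14.5 and at 1 read in ISC, and Acta2, the smooth-muscle actin, at 69.2, 73.6 and 54.4 and 1.01, 0.490 and 0.131 CPM. Enteric neural genes were lower in 15 of 19 and higher in 2. Their list sum was nonetheless higher in ISC (230 to 239 against 154 to 166 CPM) through Erbb3, which epithelium reads too. Endothelial genes were lower in 6 of 11 tested and higher in 2, and summed to 31.2 to 33.9 CPM in ISC and 44.3 to 48.5 in E14.5, and Cdh5 had 0 reads in ISC. Pancreas, liver and stomach genes were lower in 7 of 12 and higher in 1, and summed to 230.0 to 333.1 CPM in E14.5 and 37.8 to 51.1 in ISC, and Ctrb1, a pancreatic protease, varied in E14.5 at 49.9, 32.2 and 128 CPM. The part of such cells in the falls of matrix, guidance, BMP and Hedgehog genes was not tested.

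Stress and sex genes differed too. Immediate-early genes, which respond within minutes to handling, were higher in 28 of 35 cases and lower in 0, and summed to 9839 to 15130 CPM in ISC against 2779 to 2922 in E14.5. Fos stood at 1340, 1099 and 840.1 CPM in ISC and 62.5, 64.0 and 55.5 in E14.5, and Jun at 1221, 975 and 806 and 112, 118 and 120.3. ISC replicate 1 had the highest sum of the list, and the part of the additional EDTA and DNase steps of the adult preparation was not tested. Of the sex-chromosome genes, 4 of 8 tested were higher in ISC and 3 lower. Xist, read from the inactive X of females, stood at 1345, 1369 and 986 CPM in E14.5 and 8.68, 9.70 and 7.96 in ISC. The Y-linked genes Ddx3y, Eif2s3y and Kdm5d were readable in every library and 1.57-fold, 2.35-fold and 2.04-fold higher in ISC. Each E14.5 library thus held reads of Xist and of the Y-linked genes, and sex and stage cannot be told apart in the comparison.

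**Figure D5:**
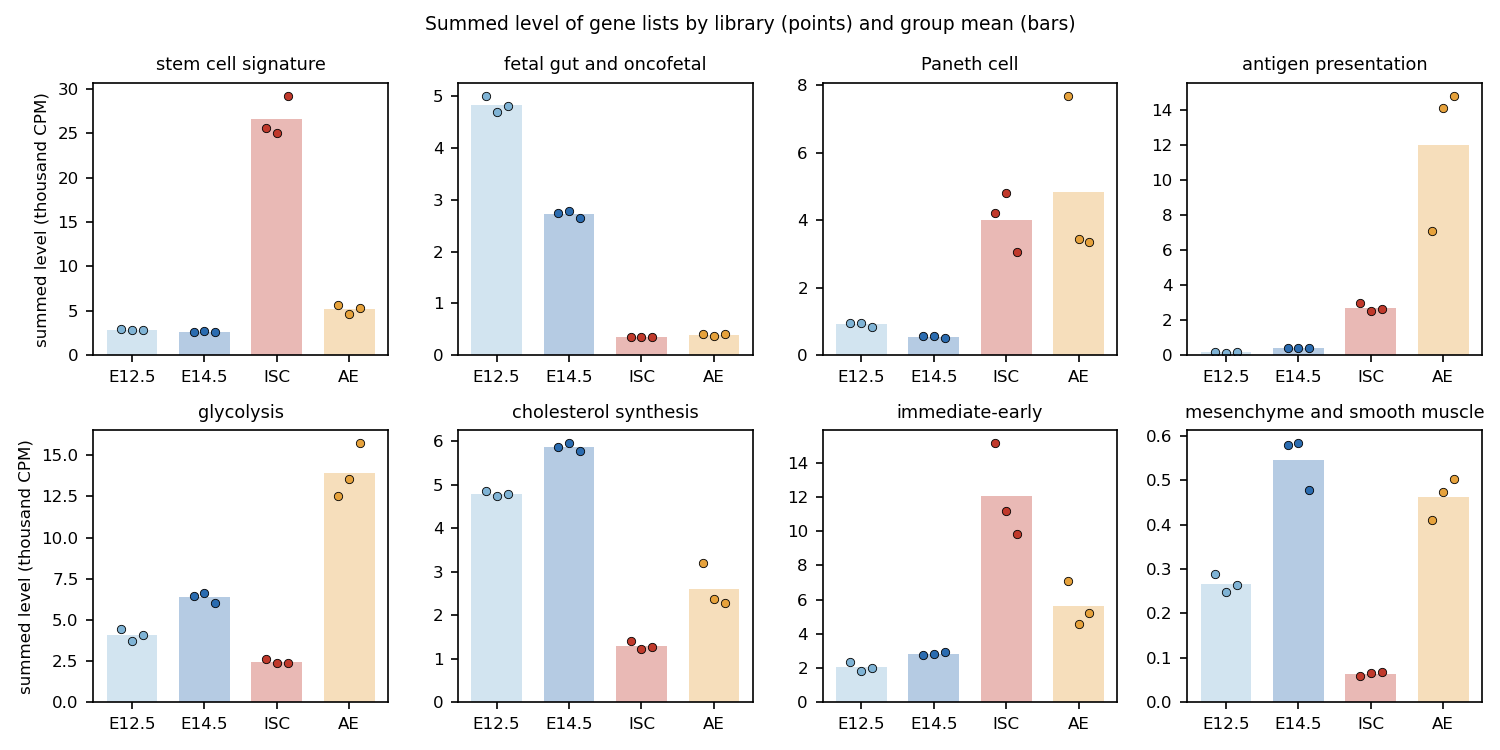
Summed level of 8 gene lists in each of the 12 libraries, in units of 1000 CPM on a linear axis from 0, with 3 libraries per group in the order E12.5, E14.5, ISC and AE. Points are single libraries and bars group means. Stem-cell and immediate-early genes peak in ISC, fetal genes stand lower in both adult groups, and cholesterol synthesis and glycolysis genes are lowest in ISC.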

How the data were processed

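RNA-seq read counts per gene were deposited by the authors for each library, as whole numbers without normalisation. Per the labels' protocols, RNA of sorted cells was amplified from 50 ng with an Ovation kit and made into libraries with NEBNext. Build mm9 is named in the submitters' processing notes, as are HTSeq 0.6.1p1, STAR 2.3.1z13, DESeq2 1.6.3, bcl2fastq 1.8.4 and SAMtools 1.2, with annotation, counting options and strand setting not given in the sources used here. Lines for reads with no feature, ambiguous or not uniquely aligned were left out of library sizes. They made up 39.3% to 47.2% (no feature) and 0.65% to 0.91% (ambiguous) of the listed reads in the 6 libraries. Gene reads numbered 15104540 to 45190749 in these libraries.

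Counts of all 12 libraries were fitted with edgeR 4.0.16 (R 4.3.3, limma 3.58.1) by the quasi-likelihood F test, 1 coefficient per group, TMM scaling and the tool's default filter, which kept 15342 of 23366 genes. P-values were adjusted by Benjamini-Hochberg over all genes tested, with a threshold of 0.05. CPM values use the TMM-scaled library size, and fitted changes a prior count of 0.125. Where a group had 0 reads, the fold is a bound against 3 counts over the group. Amplified reads are not independent molecules, so this floor covers counting error only. The labels give 1 gut per ISC replicate and do not say how E14.5 replicates were separated, so p-values measure the spread between these samples. The fitting was checked on simulated counts in which 200 genes were changed in ISC. That is a far smaller share than the 60.7% called here, so the check does not cover the scaling of these data.

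The shared part of a gene is the percent of its 50-base stretches that other genes' transcripts in GENCODE M21 also hold, and 23005 genes had a sequence. The 55 gene lists hold 1826 genes of the files, 1638 of them tested, and 19 entries matched none. Genes are named as the 12 largest changes each way among called genes without overlap whose higher group averaged 20 CPM or more, the 6 largest differences in CPM each way, preset members of each list, up to 4 more per list by size of change at 5 CPM or more, and tested members that were not called. Some genes that these rules choose are not reported here. Members and lists were chosen with earlier results of these data known. Alternatives were DESeq2 1.42.0, limma-voom, other scalings, filters and prior counts, a fold-threshold test, the 6 libraries alone, a replicate block, each replicate left out, the age label, and genes without shared sequence. RefSeq windows are on GRCm38.p6 and were not converted to mm9.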

Additional observations from a re-analysis of the deposited data

Results flagged for a closer look

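Reads without a unique alignment were not part of any comparison of genes. They made up at least 5.05% of the listed reads in every ISC library and were listed at 0 in every E14.5 library. They were also listed at 0 in the 3 AE libraries, and made up 3.06% to 3.96% in the libraries titled E12.5. How this listing relates to the gene counts was not tested.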

How the results depend on the processing

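Of 238 genes named, 1 lost its call under an alternative other than following the age label, which was Rn45s. The alternative of genes without shared sequence held only 101 of them, so the rest were not checked by it. Of the 21 named genes that were not called, 18 passed under at least 1 alternative, 10 of them under one other than the age label, and 10 of the 55 lists changed their balance of higher and lower members. Only 5 lists stayed near their counts under every alternative. The counts of 44 lists moved without such a turn under at least 1 alternative, 38 of them with genes without shared sequence. Counts of called genes stayed within 1.5 times their values under DESeq2, limma-voom, the other scalings, no filter on low counts, a fit of the 6 libraries alone and a prior count of 2. A test against a 2-fold change called 3748 genes, against 5091. Scaling moved the median log2 difference by at most 0.059. Without each replicate in turn, 8339 to 9004 genes were called, 4086 to 4372 higher and 4250 to 4688 lower, with 2369 to 2439 and 2618 to 2766 at 2-fold and 694 to 733 and 1329 to 1418 at 8-fold. Of the 55 lists, 28 to 31 then had more members higher than lower and 20 to 24 more lower.

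Only 6030 tested genes shared no 50-base stretch with another gene. Among these fewer genes 3767 were called, 1833 higher and 1934 lower, with 1023 and 1265 at 2-fold and 302 and 663 at 8-fold. The difference between members higher and members lower turned to -1 for Notch, 2 for Hippo and YAP, -3 for Eph and ephrin, -4 for retinoid and steroid and 6 for chromatin remodelling, with fewer members tested. It turned to -1 for the unfolded protein response with DESeq2 and with the 6 libraries alone, to 2 for claudins and junctions with the 6 libraries alone, and to -1 for antioxidants with upper-quartile scaling. Leaving out replicates moved the antioxidant difference between -1 (without E14.5 replicate 3) and 4. The difference also turned to -1 for retinoid and steroid without E14.5 replicate 2, and to 1 for chromatin remodelling without E14.5 replicate 2, ISC replicate 1 or ISC replicate 2. The cause was not tested.

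Following the age label called 10513 genes. It turned the log2 difference of Airn to -2.15, Fabp1 to 2.23, Gata4 to -0.85, Gata6 to 0.35, Neurod1 to 0.84, Neurog3 to 1.49, Nr6a1 to -0.12, Pklr to 1.31, Ptch1 to -0.46 and Spdef to 1.08. The list differences turned to 9 for enteroendocrine, 9 for claudins and junctions and 1 for ribosome biogenesis and Myc. Which label is right was not tested.

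Deviations of same-numbered ISC and E14.5 libraries correlated at -0.02, -0.03 and -0.06, so no shared deviation was seen. Whether the numbers pair the samples is not given in the sources used here. With the replicate number as a block 9103 genes were called, 4505 higher and 4598 lower, and no named gene changed its call. Depth limits genes near 3 counts over a group, and shared sequence limits the defensins and histones.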

Other observations

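Some circadian clock genes were read at different levels in the 2 groups. Of 20 tested, 9 were higher in ISC (45%), 5 lower (25%) and 6 not called, against 30.2% higher and 30.6% lower of all genes. In either direction 70% of the list was called, against 60.7% of all genes. The activators Arntl and Npas2 stood at 49.9, 36.6 and 30.5 and 61.7, 61.4 and 58.2 CPM in ISC against 6.05, 6.19 and 5.49 and 0.797, 0.683 and 0.835 in E14.5, and Nr1d1, the repressor of Arntl, at 299, 294 and 252 against 26.3, 23.2 and 26.5. The repressor Cry1 fell 3.40-fold. The groups do not overlap for these 4 genes, as for 72.0% of all tested genes. The hour of collection is not given in the sources used here.

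Of the RNA-binding and microRNA processing genes, 9 of 33 were higher in ISC (27.3%) and 13 lower (39.4%). For this and the lists that follow, the shares over all tested genes were 30.2% higher and 30.6% lower. The splicing factor Celf2 fell 27.6-fold from 95.8 ± 2.46 CPM, and Zc3h12a, the nuclease Regnase-1, rose from 3.13 ± 0.0822 to 34.5 ± 7.59. Of the apoptosis genes, 11 of 30 were higher and 8 lower, with the BCL2-family gene Bcl2l14 up 14.6-fold and Bmf, a pro-death member of the family, down 5.35-fold. Ribosome biogenesis and Myc genes were lower in 14 of 42 cases and higher in 5, Mycl1 rising 4.21-fold, and by the age label the balance turned to 9 higher and 8 lower. Genes of the unfolded protein response were higher in 9 of 30 cases and lower in 5 (9 and 10 with DESeq2 and in the 6 libraries alone), led by Atf3, also an immediate-early gene, which rose 17.7-fold to 922, 593 and 460.2 CPM. Antioxidant and metallothionein genes were higher in 9 of 28 (32.1%) and lower in 7 (25%), which turned to 6 and 7 without E14.5 replicate 3. The gut glutathione peroxidase Gpx2 rose 6.14-fold and the secreted Gpx3 fell 22.2-fold. Of 7 red-cell genes tested, 4 were lower and 1 higher, and the list sum rested on the transferrin receptor Tfrc, at 1335 ± 95.5 CPM in E14.5 and 578 ± 37.8 in ISC, which epithelium reads too. By the age label in place of the title Tfrc was not called (adjusted p = 0.0732).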
